A study of Mus musculus with 23 samples.

Results

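The imprinted Snrpn-Ube3a locus lies on mouse chromosome 7, and 8 of its genes were followed here among the 54232 gene identifiers of the count tables: Snhg14, Ube3a, Snrpn, Snurf, Ndn, Magel2, Mkrn3 and Peg12. They were listed by name because Snhg14 was lower in tau transgenic than in wild-type hippocampus at 11 months, and the question was whether Ube3a or Snrpn differed with it. That contrast chose the genes, so its values are given as a description with no test. All 8 identifiers were in the tables, 7 had reads, and 6 passed the filter on low counts in both age cohorts (Peg12 and Snurf did not).

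The study sequenced poly(A)-selected RNA from dissected C57BL/6 mouse hippocampus in 23 libraries. PS19 mice carry a transgene for a mutant form of human tau driven by the mouse prion protein promoter, and LSD1 (gene Kdm1a) is a histone demethylase. At 9 months there were 4 wild-type libraries (WT), 4 with the transgene and both Lsd1 copies (PS19), 4 with the transgene and 1 Lsd1 copy (labelled PS19;Lsd1Δ/+, here PS19_Lsd1het) and 2 with 1 Lsd1 copy and no transgene (labelled Lsd1Δ/+, here Lsd1het). At 11 months every mouse had a neuron-specific adeno-associated virus injected into the hippocampus, and there were 3 wild-type libraries with the HA control virus (WT_HA), 3 PS19 libraries with that control virus (PS19_HA) and 3 PS19 libraries with virus carrying LSD1 (PS19_rescue). The labels number the libraries of a group as replicates and do not say whether each is 1 animal, so p-values measure the spread between these libraries.

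The locus is expressed by parent of origin. In neurons the maternal copy makes Ube3a, an E3 ubiquitin ligase, while the paternal copy makes Snrpn (the spliceosomal protein SmN), Snurf (an upstream reading frame of the Snrpn transcript), Ndn and Magel2 (members of the MAGE family), Mkrn3 (a makorin E3 ligase), Peg12 (a FRAT-type regulator of GSK3) and Snhg14. Snhg14 is a very long noncoding RNA that hosts clusters of C/D snoRNAs and whose far end runs antisense across Ube3a, a transcript known to silence the paternal Ube3a copy in neurons. In people, loss of the paternal genes of the corresponding region is known for Prader-Willi syndrome and loss of maternal UBE3A for Angelman syndrome.

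In the GENCODE M21 annotation (build GRCm38, the build of the submitters' processing notes) Ube3a is a protein-coding gene on the plus strand at chr7:59228750-59311536, and Snhg14 is a noncoding gene on the minus strand at chr7:59307924-59975759. Snrpn follows on the minus strand at chr7:59982495-60140219 with Snurf inside it at chr7:59995449-60005049. Ndn (chr7:62346569-62350262, plus), Magel2 (chr7:62377010-62381640, plus), Mkrn3 (chr7:62417593-62420139, minus) and Peg12 (chr7:62461871-62464510, minus) form a second group at the far side. The interval from the first to the last of them spans 3.24 Mb and holds 267 annotated genes, 210 of them snoRNAs. Exonic overlap matters for the counts: 27.3% of Ube3a's exonic bases lie opposite other annotated genes, and all 216 exonic bases of Snurf are shared on the same strand with Snrpn or the readthrough gene Gm38393. No source used here states the strand setting of the counting, so sense and antisense reads over Ube3a cannot be told apart.

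The start-site windows show which genes share a start and which do not. All 8 genes matched RefSeq promoter windows (build GRCm38.p6, 250 bases before to 50 after the start), 11 windows of which 9 were distinct. Snhg14 and Snrpn share 1 window letter for letter at the far upstream start, and Snrpn and Snurf share another. That far upstream RefSeq start lies outside the GENCODE M21 spans of both Snhg14 and Snrpn given above. Capitals mark CGCATGCG, a palindrome that reads the same on both strands and was chosen after the windows were read. It occurs in 5 of the 9 distinct windows, and in 610 of 32544 windows (1.87%) of this length in the RefSeq table. Some of the 5 are near copies of each other and the motif was picked from them. No enrichment is read from these shares. A match is a description of the letters, not a binding site.
Snhg14 and Snrpn, shared upstream start, chr7:60450128-60450427, minus strand: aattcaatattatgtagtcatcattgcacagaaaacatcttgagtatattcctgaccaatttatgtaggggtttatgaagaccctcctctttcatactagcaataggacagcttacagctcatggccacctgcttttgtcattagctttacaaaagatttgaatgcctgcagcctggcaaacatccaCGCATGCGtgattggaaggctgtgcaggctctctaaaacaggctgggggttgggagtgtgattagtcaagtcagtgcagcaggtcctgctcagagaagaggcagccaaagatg
Snrpn, second upstream start, chr7:60140176-60140475, minus strand: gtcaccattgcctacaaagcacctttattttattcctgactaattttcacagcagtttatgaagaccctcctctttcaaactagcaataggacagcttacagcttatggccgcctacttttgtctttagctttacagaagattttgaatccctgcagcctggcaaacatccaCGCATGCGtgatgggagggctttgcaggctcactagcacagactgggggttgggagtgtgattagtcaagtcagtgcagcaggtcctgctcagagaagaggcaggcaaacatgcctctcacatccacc
Snrpn and Snurf, shared start, chr7:60005150-60005449, minus strand: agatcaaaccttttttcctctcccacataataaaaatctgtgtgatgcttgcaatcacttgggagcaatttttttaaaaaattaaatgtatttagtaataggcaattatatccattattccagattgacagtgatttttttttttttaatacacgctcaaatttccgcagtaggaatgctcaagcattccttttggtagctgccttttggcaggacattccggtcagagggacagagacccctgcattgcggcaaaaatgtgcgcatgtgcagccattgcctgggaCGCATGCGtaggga
Ndn, chr7:62348027-62348326, plus strand: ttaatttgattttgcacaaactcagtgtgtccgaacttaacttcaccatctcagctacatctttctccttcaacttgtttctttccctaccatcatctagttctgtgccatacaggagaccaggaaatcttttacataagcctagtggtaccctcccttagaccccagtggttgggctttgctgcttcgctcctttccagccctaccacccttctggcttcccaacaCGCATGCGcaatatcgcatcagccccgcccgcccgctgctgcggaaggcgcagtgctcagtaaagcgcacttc
Ube3a, chr7:59228500-59228799, plus strand: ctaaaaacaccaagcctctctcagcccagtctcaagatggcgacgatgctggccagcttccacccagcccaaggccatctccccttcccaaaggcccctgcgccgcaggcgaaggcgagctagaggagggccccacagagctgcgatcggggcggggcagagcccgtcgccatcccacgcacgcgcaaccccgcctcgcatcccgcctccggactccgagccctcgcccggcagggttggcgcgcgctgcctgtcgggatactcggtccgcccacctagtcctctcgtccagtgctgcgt
The Snhg14 and Snrpn window matched the second Snrpn window at 79.7% of aligned columns and the Ube3a window at 48.7%. A further Snrpn window with the palindrome, chr7:60047929-60048228 (letters not printed), matched these Snrpn windows at 81.4 and 81.1%. Occurrences in such near copies are not separate. Ube3a's window has 29 CpG dinucleotides and 69.0% G and C, and the Snhg14 window has 2 CpG dinucleotides and 45.0% G and C. The windows of Ube3a, Magel2, Mkrn3 and Peg12 hold no CGCATGCG.

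Total counts ran from 15451494 to 24644977 per library. Levels are TMM CPM, a gene's counts relative to the library's total after scaling by the trimmed mean of M-values. The mitochondrial share of counts was high in 3 libraries, WT replicate 3 (33.92%), WT_HA replicate 2 (16.23%) and PS19 replicate 3 (16.12%), and at most 6.04% elsewhere. At 9 months the first principal component (50.6% of the variance) separated replicates 3 and 4 of each group from replicates 1 and 2. Sex-linked expression was male-type in every 9-month library. Each 11-month group held 2 libraries with female-type and 1 with male-type sex-linked expression. Of the female-type libraries 2 (WT_HA replicate 2 and PS19_HA replicate 2) also held Y-linked reads (20.6 and 18.6 CPM). In the other direction, the male-type WT_HA replicate 3 and PS19_rescue replicate 1 had Xist at 42.5 and 64.0 CPM, against at most 5.37 CPM in the other male-type libraries. Kdm1a stood at 51.4 to 61.4 CPM in WT, at 35.4 and 36.4 CPM in Lsd1het, at 60.5 to 66.2 CPM in the 2 control-virus groups, and at 1730 to 10800 CPM in PS19_rescue. The 4 PS19_Lsd1het libraries had 35.5, 35.2, 56.5 and 45.1 CPM, and the third value, in the library labelled PS19_Lsd1het replicate 3, lies within the WT range. Markers of hippocampal pyramidal and granule neurons were present in every group (9 markers, summed level 463 to 2390 CPM over the libraries), and 8 hypothalamus markers summed to at most 6.03 CPM. Markers of other neighbouring tissue, 6 per list, were present too. They summed to 72.3 to 469 CPM for thalamus, 18.7 to 233 for striatum, 152 to 516 for neocortex and 40.3 to 3550 for choroid plexus.

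Snhg14 was the locus gene that separated the 11-month groups. It stood at 138, 129 and 143 CPM in WT_HA, at 104, 88.0 and 86.6 CPM in PS19_HA, and at 117, 110 and 104 CPM in PS19_rescue. No library of one group reached into another, and the PS19_rescue libraries lay between the other two groups. The means were 137 ± 7.26 CPM (SD, n = 3) in WT_HA, 92.8 ± 9.51 in PS19_HA and 110 ± 6.2 in PS19_rescue. PS19_HA was below WT_HA by a log2 difference of -0.56 (SE 0.10), which is 32.2% lower. This is the contrast that chose the genes, in which 0.0156% of 19290 tested genes were called by edgeR and 0.698% by DESeq2, and 5.54% had all PS19_HA libraries below all WT_HA libraries. In bulk tissue fewer neurons and less RNA per neuron cannot be told apart, and all 10 neuron markers were lower in PS19_HA as well (median log2 difference -0.28, summed level 6640 to 7580 CPM against 7610 to 10800 in WT_HA, none at 0). As a percentage of those summed markers Snhg14 was 1.14 to 1.46% in PS19_HA and 1.19 to 1.88% in WT_HA, ranges that overlap through 1 library, WT_HA replicate 2 at 1.19%, while the other WT_HA libraries stood at 1.74 and 1.88%. Other marker lists also differed in the mean, with no marker called. Choroid plexus markers were higher in 6 of 6 cases (384 to 3550 CPM summed against 40.3 to 937), oligodendrocyte markers in 6 of 6 (4380 to 5940 against 2490 to 4530) and microglia markers in 5 of 6 (256 to 459 against 228 to 265). Striatum markers were lower in 6 of 6 cases (32.2 to 140 CPM summed against 60.3 to 233). None of these markers was at 0, and the part of the marker lists in the Snhg14 value was not tested.

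Ube3a, the ubiquitin ligase gene that Snhg14 overlaps, was lower in the same libraries by a smaller amount. It stood at 220, 280 and 242 CPM in WT_HA, at 205, 200 and 191 CPM in PS19_HA, and at 192, 209 and 221 CPM in PS19_rescue. Every PS19_HA library was below every WT_HA library, as was the case for 5.54% of tested genes, while PS19_rescue overlapped both. The log2 difference between PS19_HA and WT_HA was -0.32 (SE 0.12), and without WT_HA replicate 2, the library of high mitochondrial share and the highest for Ube3a, it was -0.22. As a percentage of summed neuron markers Ube3a was 2.80 ± 0.256 (SD, n = 3) in PS19_HA and 2.85 ± 0.297 in WT_HA.

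Snrpn, which codes for the Sm protein of neuronal spliceosomes, barely varied at 11 months. It shares a RefSeq upstream start window with Snhg14, but gene counts do not tell which start a transcript used. Its levels were 376, 391 and 381 CPM in WT_HA, 378, 358 and 371 CPM in PS19_HA, and 376, 373 and 347 CPM in PS19_rescue. The groups overlapped, and PS19_HA minus WT_HA was -0.06 (SE 0.09). Snurf had 0 reads in all 23 libraries. With every exonic base of Snurf shared with Snrpn or Gm38393, that 0 does not measure the SNURF reading frame, and 3 counts in a library of these depths would be 0.122 to 0.194 CPM.

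Of the genes at the far side, Ndn, a growth-restraining MAGE protein of neurons, was expressed well, Magel2 and Mkrn3 were low, and Peg12 was near the floor of 3 counts. Ndn stood at 145, 90.1 and 185 CPM in WT_HA, at 150, 114 and 112 CPM in PS19_HA, and at 70.7, 75.3 and 154 CPM in PS19_rescue. These groups overlapped, with a log2 difference of -0.16 (SE 0.34) between PS19_HA and WT_HA. Magel2, whose protein works with a ubiquitin ligase on the retromer pathway, ranged from 0.831 to 4.62 CPM over the 9 libraries (difference -0.08, SE 0.63), and Mkrn3 from 0.301 to 0.968 CPM (difference 0.29, SE 0.47). Within PS19_HA alone Magel2 stood at 4.62, 1.89 and 0.831 CPM (105, 44 and 21 reads), so its libraries differed among themselves more than the group means did. Peg12 had 0 to 7 reads per library, was at 0 in 2 libraries, and was not tested.

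Per kilobase of merged exon the locus genes span a wide range of levels. The median over the 23 libraries was 176 CPM per kb for Snrpn, 40.3 for Ndn, 9.10 for Ube3a, 3.37 for Snhg14, 0.551 for Magel2, 0.333 for Mkrn3 and 0.0520 for Peg12. The snoRNAs hosted in the interval gave almost nothing in these poly(A)-selected, size-selected libraries: 77 of 210 had any read, and together they took 21 to 138 reads per library.

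**Figure D1:**
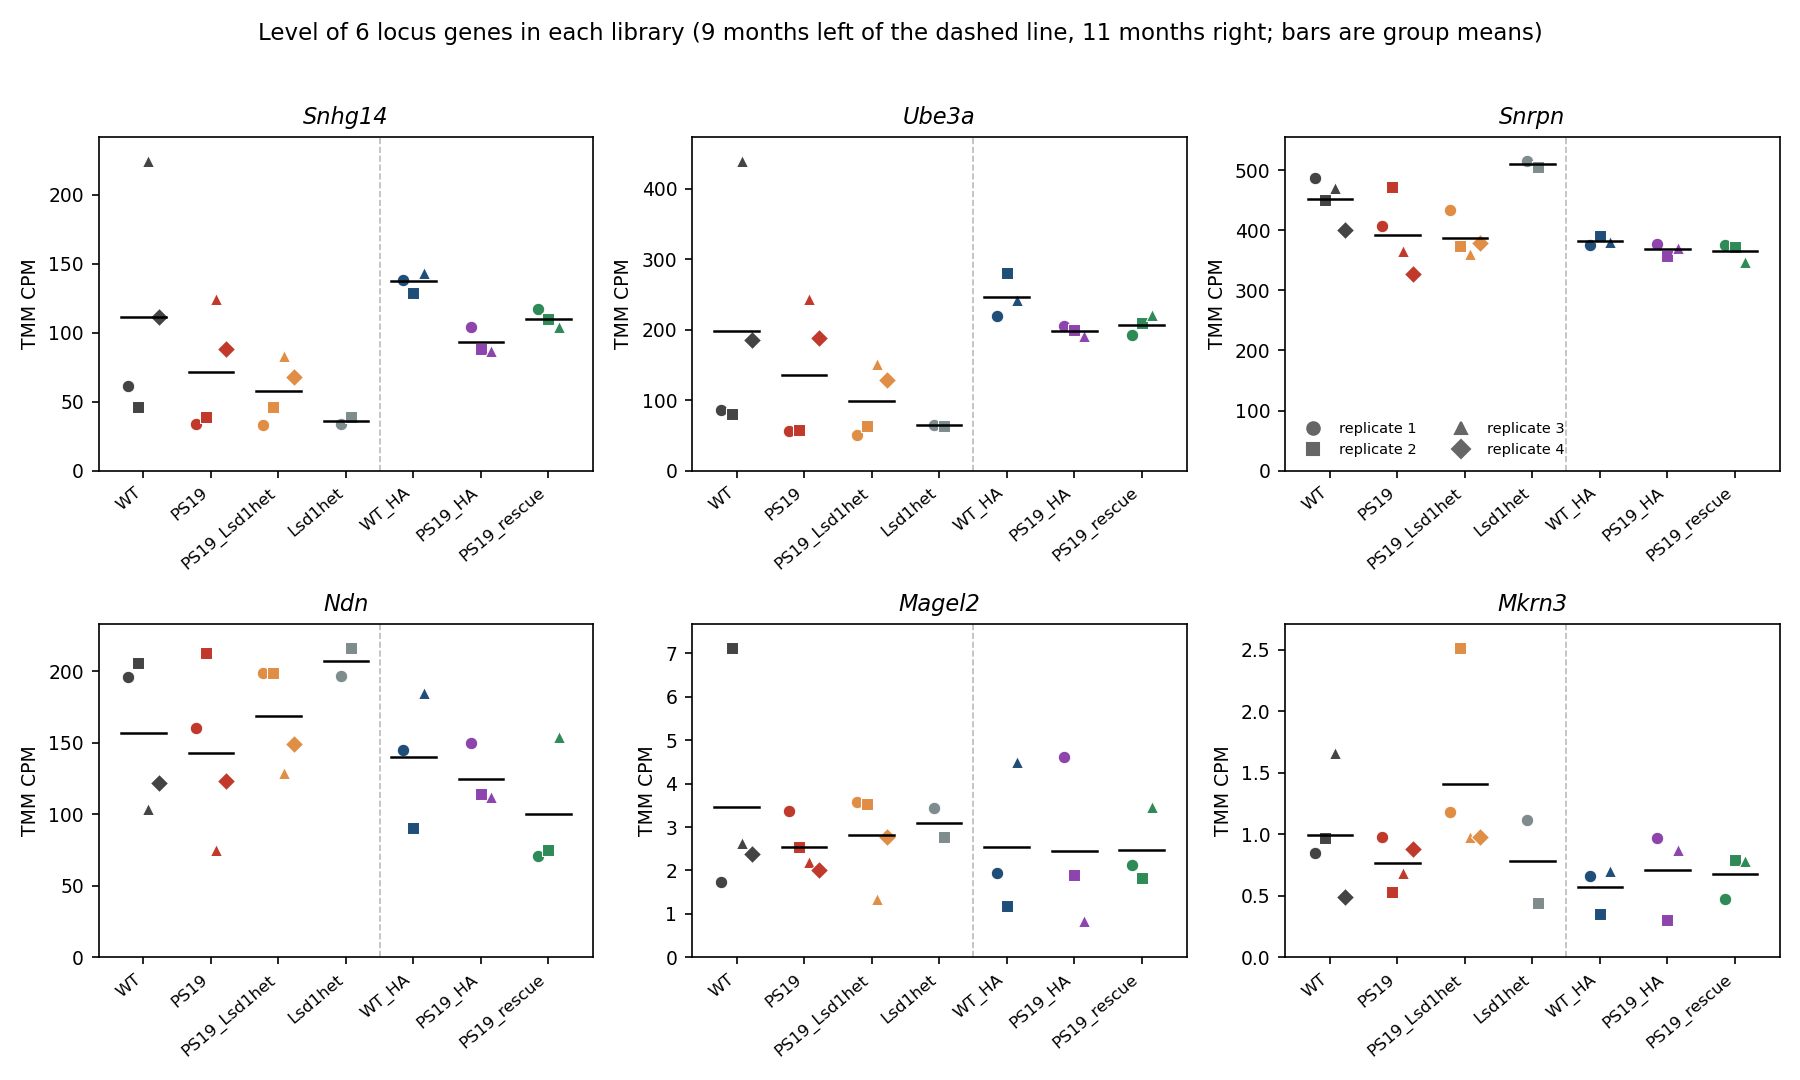
TMM CPM (vertical axis, linear, from 0) of 6 locus genes in each of the 23 libraries, by group. Marker shape is the replicate number, the black bar is the group mean, and the dashed line parts the 9-month from the 11-month groups. Snhg14 parts all 3 groups at 11 months (129 to 143, 86.6 to 104 and 104 to 117 CPM), Snrpn stays between 347 and 391 CPM there, and at 9 months replicates 3 and 4 lie above replicates 1 and 2 for Snhg14 and Ube3a.

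At 11 months most of the unnamed transcripts of the interval were lower in PS19_HA too. Of 21 other tested genes in the interval, nearly all predicted or unclassified transcripts, 20 were lower in PS19_HA than in WT_HA, with a median log2 difference of -0.45 against 0 over all 19290 tested genes. The transcript 9330162G02Rik, annotated opposite to Ube3a with 30.9 kb of exon, stood at 258, 357 and 262 CPM in WT_HA and at 180, 175 and 170 CPM in PS19_HA (difference -0.75, SE 0.16). Gm38393, the readthrough gene between Snrpn and Snhg14, stood at 21.4, 26.6 and 24.8 CPM against 20.4, 18.0 and 18.5 CPM (difference -0.36, SE 0.14). Neither gene's groups overlapped, as was the case in that direction for 5.54% of all tested genes. Because the strand of counting is not given, part of what is counted for 9330162G02Rik and Ube3a may be the same RNA, and these genes are not independent measurements. Gm44562, Gm44559 and Gm44560 also lie on the minus strand within the Ube3a span. A230103L15Rik and Gm44831 lie on that strand within the Snhg14 span. Whether these are parts of 1 RNA was not tested, so the 20 of 21 is not a count of independent genes. Among the genes flanking the imprinted domain 12 of 20 were lower, with a median of -0.06. Herc2, a ubiquitin ligase known to bind UBE3A, was at -0.18 (SE 0.09), and no flanking gene was called.

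**Figure D2:**
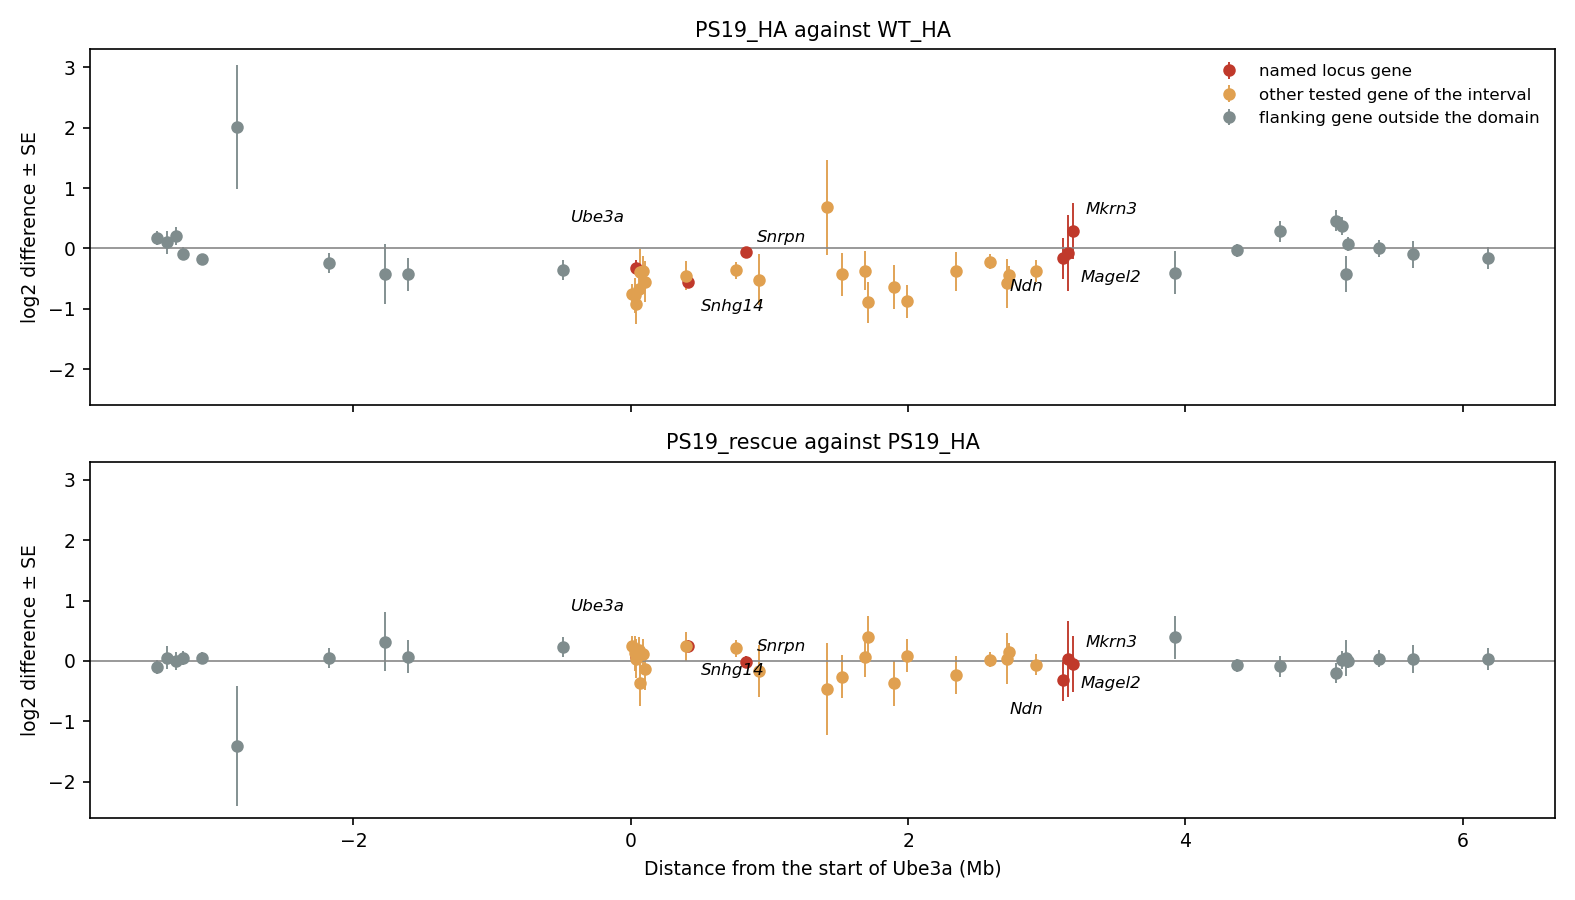
Log2 difference with its standard error (vertical axis) against distance of the gene's midpoint from the start of Ube3a in Mb, for named locus genes (red), other tested genes of the interval (orange) and flanking genes (grey). In the upper panel 20 of 21 orange points lie below 0 and grey points lie on both sides; in the lower panel (PS19_rescue against PS19_HA) 8 of 21 orange points are below 0.

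The LSD1 virus comparison asks whether added LSD1 in PS19 neurons moves these genes. No locus gene was called among 6 tested (edgeR quasi-likelihood test, Benjamini-Hochberg adjustment, 0.0% of 19290 genes called), and DESeq2 called none (0.00813% of genes). Of the 5 locus genes other than Snhg14, 0 had an unadjusted edgeR p under 0.05, against 350 of all 19290 genes. Kdm1a, the gene carried by the virus, was at 6.38 (SE 0.67). DESeq2 called it and edgeR did not (edgeR adjusted p = 0.0895). A missing edgeR call in this comparison therefore does not show that a gene was unchanged. Snhg14 was higher in PS19_rescue than in PS19_HA by 0.25 on the log2 scale (SE 0.10), given as a description because low Snhg14 in the PS19_HA libraries chose the genes. The groups did not overlap, as was the case for 3.41% of tested genes in that direction. The lowest PS19_rescue and the highest PS19_HA library both round to 104 CPM. Ube3a differed by 0.06 (SE 0.12, 95% interval -0.20 to 0.33) and Snrpn by -0.01 (SE 0.09, interval -0.21 to 0.19), and the groups overlapped for each gene. Ndn was at -0.32 (SE 0.34), Magel2 at 0.03 (SE 0.63) and Mkrn3 at -0.05 (SE 0.46). The other genes of the interval had a median of 0.04, with 8 of 21 lower, and neuron markers a median of 0.07 with 6 of 10 higher. Choroid plexus markers were lower in PS19_rescue in 6 of 6 cases (median -1.36), astrocyte markers in 6 of 6 (-0.12), and microglia (-0.39) and oligodendrocyte markers (-0.07) in 5 of 6 each. Striatum markers were higher in 6 of 6 cases (median 0.38). No marker was called, and their part in the Snhg14 value was not tested.

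Set against WT_HA, PS19_rescue had a lower Snhg14 level, by -0.31 on the log2 scale (SE 0.10), with no overlap of the libraries (5.14% of genes were separated in that direction). This comparison shares the WT_HA libraries with the one that chose the genes and is a description for Snhg14. Ube3a was at -0.26 (SE 0.12, edgeR adjusted p = 0.864), and its PS19_rescue range of 192 to 221 CPM met the WT_HA range at 220 CPM. No locus gene was called (0 of 6 by edgeR and 0 by DESeq2, where 0.0207% of genes were called by edgeR and 0.0616% by DESeq2). Of the 5 locus genes other than Snhg14, 0 had an unadjusted edgeR p under 0.05, against 773 of all 19290 genes. Of the other genes of the interval 20 of 21 were lower, with a median of -0.49. Neuron markers were lower in PS19_rescue in 9 of 10 cases (median -0.31) and striatum markers in 6 of 6 (-0.29). Oligodendrocyte (0.65) and choroid plexus markers (0.91) were higher in 6 of 6 cases each, and microglia markers in 5 of 6 (0.27). None of these markers was called, and their part in the Snhg14 value was not tested.

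At 9 months Snhg14 and Ube3a varied several-fold within groups. Snhg14 stood at 61.0, 46.1, 224 and 111 CPM in WT, at 33.8, 38.5, 124 and 88.0 CPM in PS19, at 32.9, 45.8, 83.2 and 68.1 CPM in PS19_Lsd1het and at 33.4 and 38.9 CPM in Lsd1het, in the order of the replicate numbers. In each group with 4 libraries, numbers 3 and 4 were above numbers 1 and 2. Ube3a followed the same order, at 86.1, 80.7, 439 and 186 CPM in WT, 55.5, 57.6, 244 and 188 CPM in PS19, 50.4, 63.0, 151 and 129 CPM in PS19_Lsd1het, and 64.4 and 63.9 CPM in Lsd1het. On average over the 3 groups, replicates 3 and 4 exceeded replicates 1 and 2 by 1.34 on the log2 scale for Snhg14 and by 1.66 for Ube3a. Ndn went the other way (-0.76) and Snrpn less so (-0.19). The labels do not say what sets these replicate numbers apart.

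**Figure D3:**
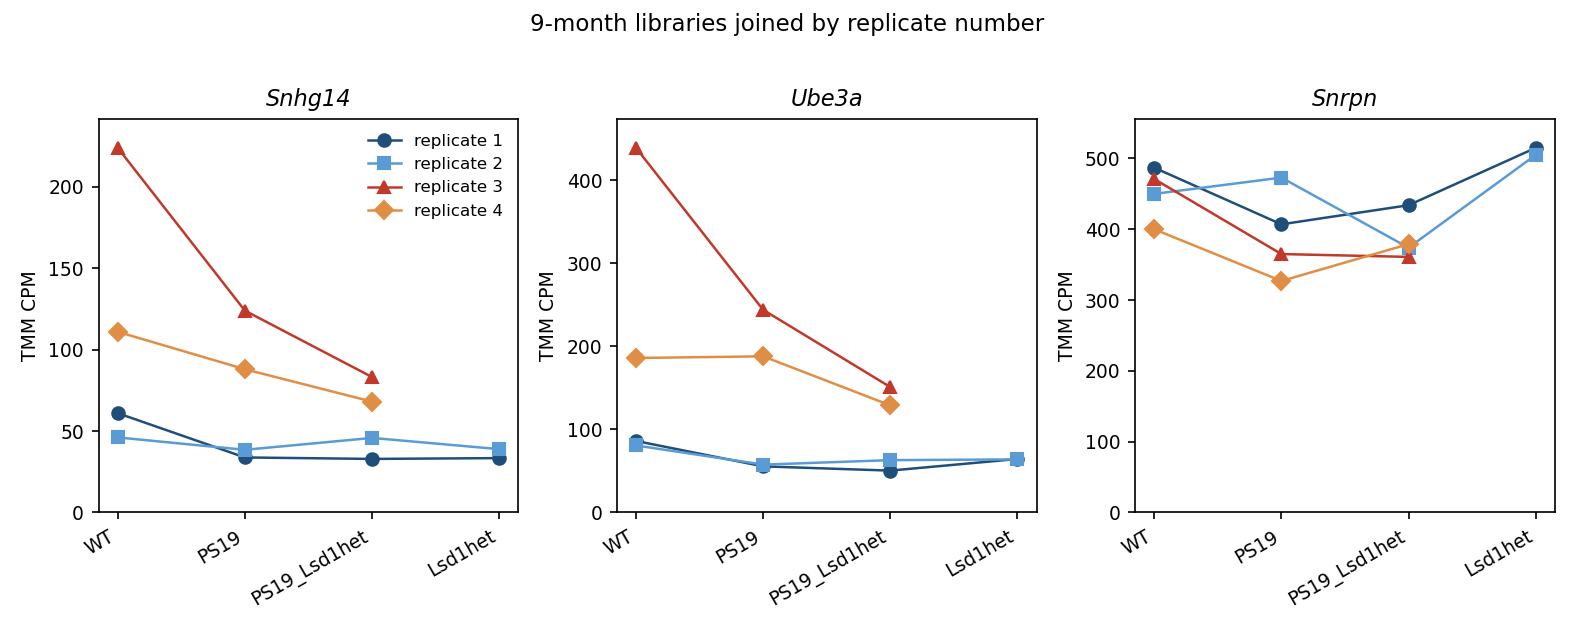
TMM CPM (vertical axis, linear, from 0) of Snhg14, Ube3a and Snrpn in the 9-month libraries, joined by replicate number. For Snhg14 all 4 PS19 libraries lie below the WT library of the same number, and the lines of replicates 3 and 4 start at 224 and 111 CPM against 61.0 and 46.1 CPM for replicates 1 and 2.

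Against that spread no locus gene was called between PS19 and WT at 9 months (0 of 6 by edgeR, 0 with an unadjusted p under 0.05, 0 by DESeq2, with 0.00497% of 20122 genes called by edgeR and 0.803% by DESeq2), although all 6 were lower in the mean. An unadjusted edgeR p under 0.05 was reached by 787 of the 20122 genes. Snhg14 was at -0.64 on the log2 scale (SE 0.52, interval -1.76 to 0.49, adjusted p = 1.0) and Ube3a at -0.54 (SE 0.62, interval -1.87 to 0.78, adjusted p = 1.0). Without WT replicate 3 these became -0.05 and 0.18. Same-numbered libraries deviated together (correlations 0.50 to 0.82 over 4 pairs), and number by number Snhg14 was lower in PS19 in 4 of 4 pairs, by 0.26 to 0.85 in log2 terms. The same held for 10.3% of all tested genes. Blocking on the replicate number gave a Snhg14 difference of -0.59 (SE 0.19, interval -1.01 to -0.18, edgeR adjusted p = 0.346) and a Ube3a difference of -0.50 (SE 0.19, adjusted p = 0.463). Within replicates 1 and 2 alone Snhg14 was at -0.54 and within replicates 3 and 4 alone at -0.67. Neuron markers were lower in the mean in 10 of 10 cases here too (median -0.28), and striatum markers in 6 of 6 (-1.48). Oligodendrocyte (0.53), astrocyte (0.35) and choroid plexus markers (0.79) were higher in 6 of 6 cases each, and microglia markers in 5 of 6 (0.91). None of these markers was called, and their part was not tested.

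Snrpn, Ndn, Magel2 and Mkrn3 were lower in the mean in PS19 at 9 months, with overlapping groups and no call. Snrpn stood at 487, 450, 471 and 400 CPM in WT and at 407, 473, 365 and 327 CPM in PS19 (-0.20, SE 0.17). Ndn was at -0.14 (SE 0.31), Magel2 at -0.45 (SE 0.44) and Mkrn3 at -0.33 (SE 0.47). Of the other genes in the interval 19 of 20 were lower, with a median of -0.72 against -0.02 over all genes, none of them called. The flanking genes had a median of -0.05, with 13 of 21 lower.

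**Figure D4:**
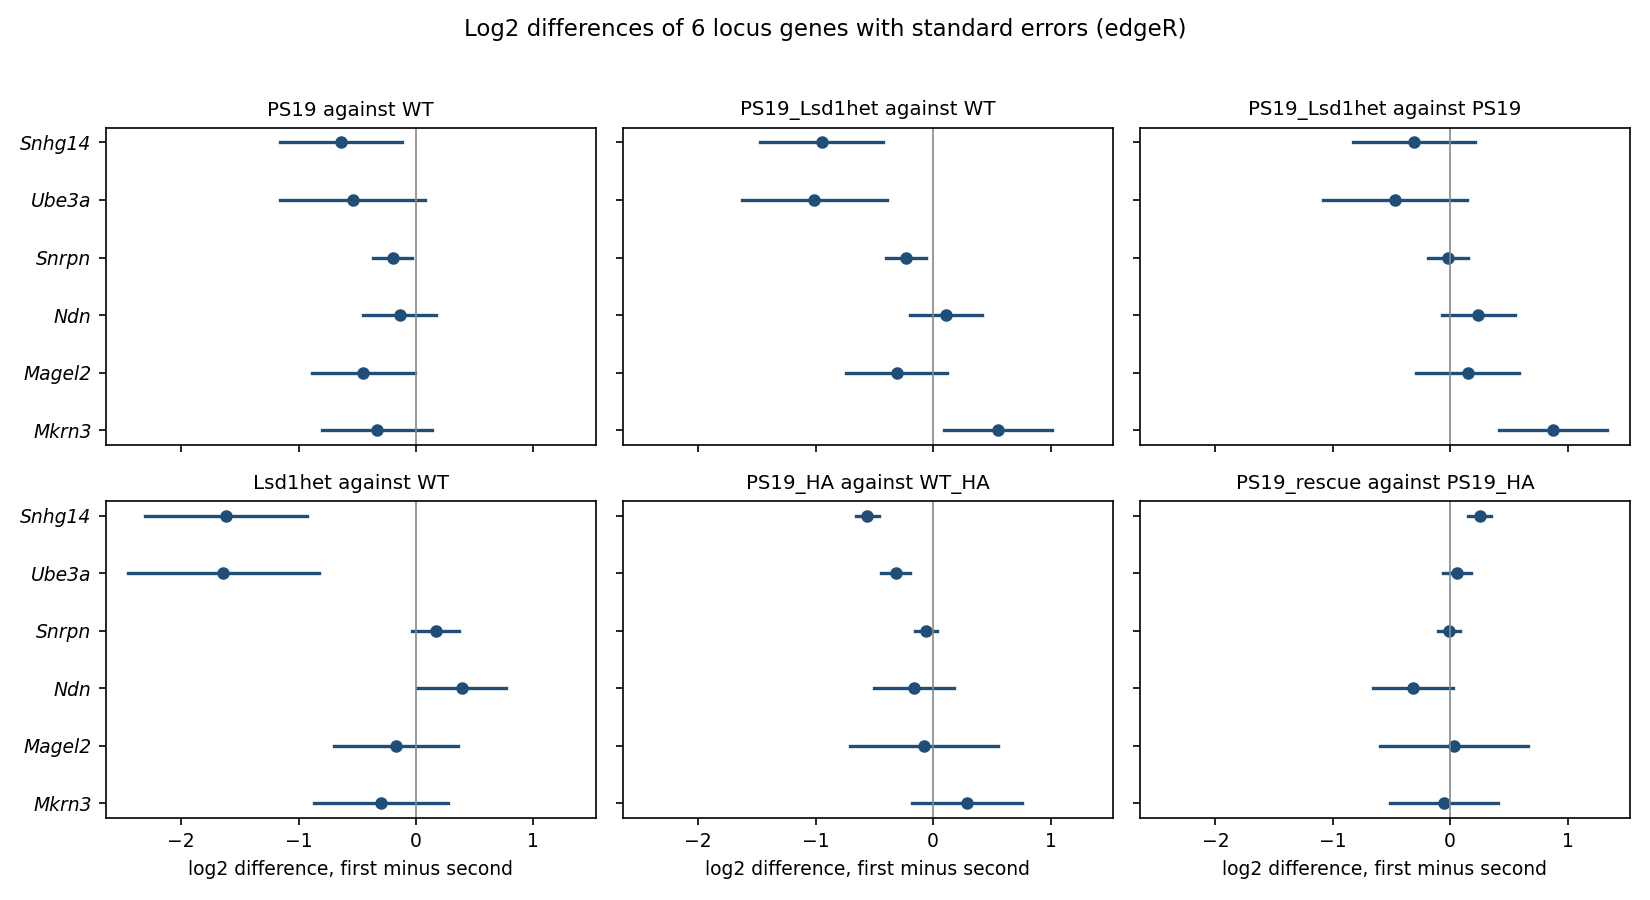
Log2 differences (points) with standard errors (lines) from edgeR for 6 locus genes in 6 comparisons, first group minus second. At 9 months the lines of Snhg14 and Ube3a are longer than those of Snrpn and Ndn (in PS19 against WT 0.52 and 0.62 against 0.17 and 0.31). PS19_HA against WT_HA, the contrast that chose the genes, has Snhg14 at -0.56 and Snrpn at -0.06.

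Tau mice with 1 Lsd1 copy showed the lowest Snhg14 and Ube3a means of the groups with 4 libraries, with no call. Between PS19_Lsd1het and WT 0 of 6 locus genes were called by edgeR (0 with an unadjusted p under 0.05, 0 by DESeq2, with 0.00497% of genes called by edgeR and 0.498% by DESeq2). Of all 20122 tested genes 1270 had an unadjusted edgeR p under 0.05. Snhg14 was at -0.95 (SE 0.52, adjusted p = 0.828) and Ube3a at -1.01 (SE 0.62, adjusted p = 0.829). Leaving out WT replicate 3 brought them to -0.36 and -0.29, and leaving out the library labelled PS19_Lsd1het replicate 3 to -1.16 and -1.28. Within replicates 1 and 2 alone they were -0.42 and -0.54, and within replicates 3 and 4 alone -1.16 and -1.17. With the replicate block, where same-numbered libraries also deviated together (correlations 0.31 to 0.54), they were -0.76 (SE 0.19, edgeR adjusted p = 0.121) and -0.80 (SE 0.19, adjusted p = 0.107). Only 2 of 4 PS19_Lsd1het libraries correlated best with the WT library of their own number. This comparison shares the WT libraries with the one before it. Mkrn3 stood at 1.18, 2.51, 0.980 and 0.981 CPM in PS19_Lsd1het and at 0.848, 0.973, 1.66 and 0.491 CPM in WT (0.55, SE 0.46), and Snrpn was at -0.23 (SE 0.17). Hippocampal neuron markers were lower in 9 of 9 cases (median -0.55) and neuron markers in 8 of 10 (-0.53). Oligodendrocyte markers were higher in 6 of 6 (0.67) and microglia markers in 5 of 6 (0.84). None of these markers was called, and their part was not tested.

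Between PS19_Lsd1het and PS19, which differ by 1 Lsd1 copy, 0 of 6 locus genes were called by edgeR (0 with an unadjusted p under 0.05, 0 by DESeq2, with 0.0% of genes called by edgeR and 0.00263% by DESeq2). Of all 20122 tested genes 252 had an unadjusted edgeR p under 0.05. Snhg14 was at -0.31 (SE 0.52, interval -1.43 to 0.81) and Ube3a at -0.47 (SE 0.61, interval -1.80 to 0.86). Leaving out 1 library at a time gave -0.53 to 0.1 for Snhg14 and -0.74 to -0.03 for Ube3a. Both low ends came without the library labelled PS19_Lsd1het replicate 3, whose Kdm1a level lies within the WT range. Within replicates 1 and 2 alone the Snhg14 value was 0.12, the opposite direction, and within replicates 3 and 4 alone it was -0.49. Mkrn3 was higher in every PS19_Lsd1het library than in any PS19 library (0.980 to 2.51 against 0.531 to 0.975 CPM), with a log2 difference of 0.88 (SE 0.46, adjusted p = 1.0). These levels rest on 16 to 68 reads per library against 10 to 22, and the read counts overlap. Without PS19_Lsd1het replicate 2, the library at 2.51 CPM, the difference was 0.43, and within replicates 3 and 4 alone it was 0.31. Over all genes 0.393% of tested genes were separated in that direction. Snrpn was at -0.02 (SE 0.17, interval -0.38 to 0.34). Hippocampal neuron markers were lower in 8 of 9 cases (median -0.42) and striatum markers higher in 6 of 6 (0.77), none of them called. Their part was not tested.

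The comparison of Lsd1het with WT gave the largest Snhg14 and Ube3a differences of the 8 comparisons, and they were smaller within replicate numbers. Lsd1het has replicates 1 and 2 only. Against all 4 WT libraries Snhg14 was at -1.62 (SE 0.69, edgeR adjusted p = 0.805) and Ube3a at -1.64 (SE 0.81, adjusted p = 0.805). Against WT replicates 1 and 2 alone, a fit added after the data were seen, they were -0.57 (SE 0.19, edgeR adjusted p = 1.0) and -0.38 (SE 0.13, edgeR adjusted p = 1.0). No locus gene was called (0 of 6 by edgeR, 1 with an unadjusted p under 0.05, 0 by DESeq2, with 0.0% of genes called by edgeR and 0.00263% by DESeq2). Over all 20122 tested genes 257 had an unadjusted edgeR p under 0.05. Snhg14 and Ube3a were lower in both Lsd1het libraries than in any WT library, as 5.76% of tested genes were. Snrpn was higher in Lsd1het, at 515 and 505 CPM against 400 to 487 CPM in WT (0.17, SE 0.20, adjusted p = 0.805), and 4.97% of genes were separated in that direction. Striatum markers were lower in Lsd1het in 6 of 6 cases (median -1.69), choroid plexus markers in 6 of 6 (-0.24) and neuron markers in 8 of 10 (-0.34). Hippocampal neuron markers were higher in 6 of 9 (0.11). None of these markers was called, and their part was not tested.

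The interaction asks whether loss of 1 Lsd1 copy acts differently with and without tau. No locus gene was called (0 of 6 by edgeR, 0 with an unadjusted p under 0.05, 0 by DESeq2, with 0.0% of genes called by edgeR and 0.00526% by DESeq2). Of all 20122 tested genes 168 had an unadjusted edgeR p under 0.05. The Snhg14 term was 1.31 (SE 0.84, interval -0.50 to 3.13, adjusted p = 0.999) and the Ube3a term 1.17 (SE 0.99, adjusted p = 0.999). Within replicates 1 and 2, the only numbers present in all 4 genotypes, they were 0.69 (SE 0.27) and 0.38 (SE 0.18), with an edgeR adjusted p = 1.0 for each. The interaction term was above 0 for 6 of 6 striatum markers (median 2.79) and 7 of 10 neuron markers (0.2), and below 0 for 8 of 9 hippocampal neuron markers (-0.29). None of these markers was called, and their part was not tested.

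Within a library Snhg14 and Ube3a kept within a narrower ratio to each other than either did to Snrpn. The ratio of Snhg14 to Ube3a CPM, not corrected for length, ran from 0.441 to 0.727 over the 23 libraries, while Snhg14 itself ran 6.81-fold, Ube3a 8.72-fold and Snrpn 1.57-fold from lowest to highest. In PS19_HA the ratio was 0.467 ± 0.0346 (SD, n = 3), in WT_HA 0.559 ± 0.0887 and in PS19_rescue 0.535 ± 0.0674, and the 3 ranges overlapped. Over 14 tests of 3 within-library ratios, added after the data were seen, none passed after Benjamini-Hochberg adjustment. The smallest adjusted p of these exact two-sided permutation tests was 0.8, where 3 libraries against 3 cannot go below p = 0.1 and 4 against 4 not below 0.0286. The ratio of Snhg14 to Ube3a differed between PS19 and WT by -0.08 on the log2 scale (exact permutation p = 0.629). The ratio of Snhg14 to Snrpn was 0.295 to 0.310 in PS19_rescue and 0.234 to 0.275 in PS19_HA, ranges that did not overlap, given with no test because the PS19_HA values of Snhg14 chose the genes.

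**Figure D5:**
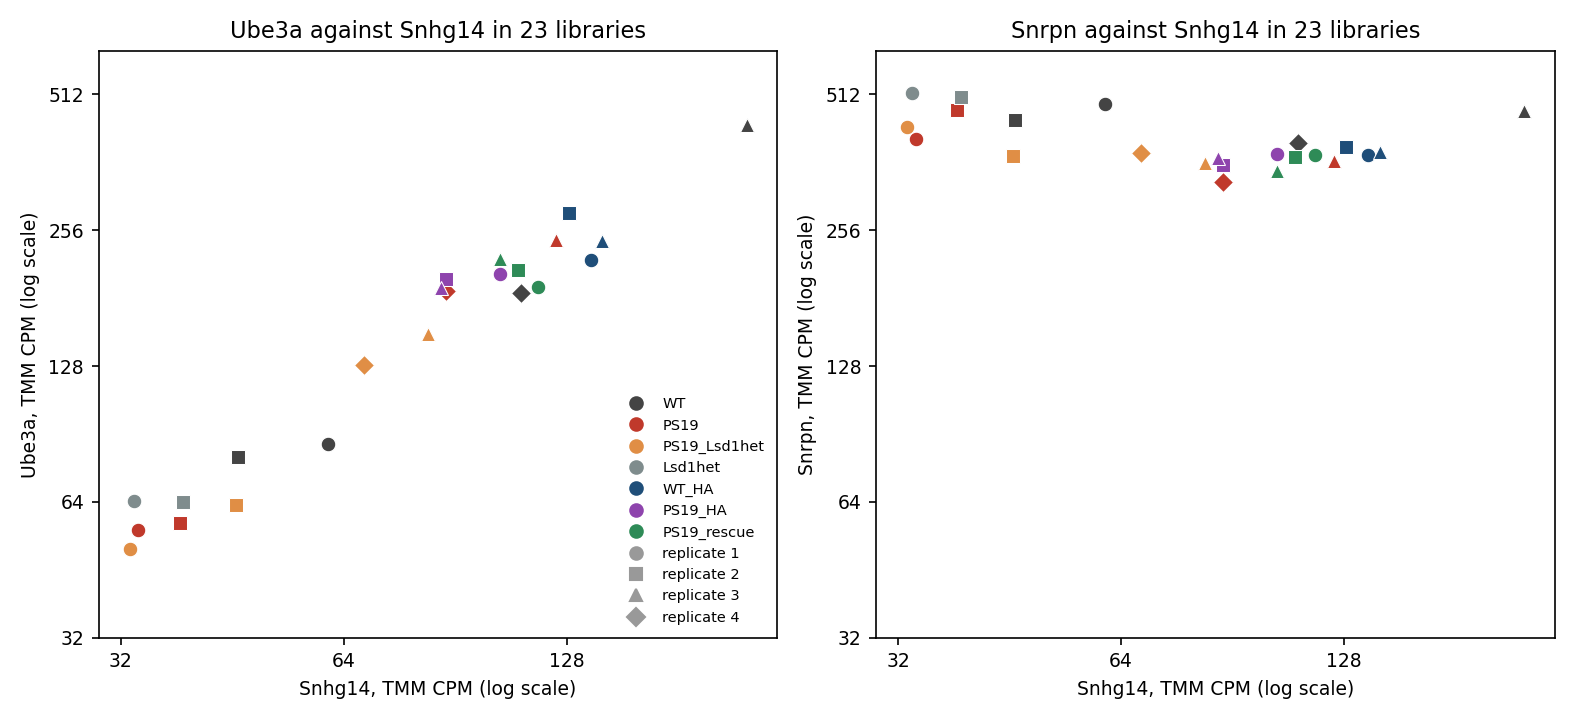
Ube3a (left) and Snrpn (right) against Snhg14, TMM CPM on log axes, 1 point per library, colour for group and shape for replicate number. Ube3a climbs with Snhg14 from 50.4 to 439 CPM across the libraries, while Snrpn stays between 327 and 515 CPM.

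Ordered by mean level over all 7 groups, Snhg14 ran WT_HA, WT, PS19_rescue, PS19_HA, PS19, PS19_Lsd1het and Lsd1het, from 137 to 36.2 CPM. Neighbours in that order overlapped in their ranges except PS19_rescue and PS19_HA. For Ube3a the order was WT_HA, PS19_rescue, WT, PS19_HA, PS19, PS19_Lsd1het and Lsd1het, from 247 to 64.1 CPM, with every neighbouring pair overlapping. For Snrpn only Lsd1het (510 CPM) stood clear of its neighbour WT (452 CPM), and for Ndn, Magel2, Mkrn3 and Peg12 all neighbours overlapped. Age, virus, cohort and sex type differ together between the 9-month groups, all male-type, and the 11-month groups, each of mixed sex type. They cannot be told apart.

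Of the 5 named genes most like Snhg14, 1 (Ube3a) lies in the locus. Predicted genes and pseudogenes were left out of the naming, and 2 of them stood before Dzip3. Likeness was Pearson's r of log2 CPM over the 23 libraries after each cohort's mean was removed, among 16183 other genes averaging 1 CPM or more, and is a description since the libraries share the replicate structure above. The 5 closest named genes were Xrn1, a cytoplasmic exonuclease gene (0.972), Ube3a (0.970), Bicd1, a dynein adaptor gene (0.968), Far1, a fatty acyl-CoA reductase gene (0.968), and Dzip3 (0.962). For Ube3a they were Zfp72 (0.990), Bicd1 (0.987), Far1 (0.986), Lztfl1 (0.984) and Nek1 (0.983). Unclassified transcripts of the interval were also highly alike. The transcript 9330162G02Rik was at 0.962 with Snhg14 and 0.975 with Ube3a, and A230103L15Rik at 0.911 and 0.963. The readthrough gene Gm38393 was at 0.938 with Snhg14, whereas Snrpn was at -0.306, Ndn at -0.611 and Magel2 at -0.236.

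Snhg14 and Ube3a are long in merged exons, which join the exons of all annotated transcripts of a gene and are not the length of 1 transcript. Merged exons measure 26.1 kb for Snhg14 and 20.6 kb for Ube3a, against 2.16 kb for Snrpn, 3.69 kb for Ndn and a median of 3.63 kb over genes tested at 9 months. In a comparison by exon length, added after the data were seen, replicates 3 and 4 minus 1 and 2 at 9 months had a median log2 value of 0.50 over the 116 tested genes with at least 20 kb of exon and -0.07 over the 8394 genes with 2 to 5 kb. In PS19_HA against WT_HA, 87.0% of the 115 longest genes were lower (median -0.20), against 45.4% of the genes with 2 to 5 kb (median 0.03). In PS19_rescue against PS19_HA 27.8% of the longest genes were lower (median 0.04). The Snhg14 and Ube3a values at 11 months, -0.56 and -0.32, lie beyond the median of the longest genes, and the part of length in them was not tested.

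Genes that act with the locus products showed no call in the comparisons of tau with wild type. Of 12 listed UBE3A partners and substrates 8 were lower in PS19_HA than in WT_HA (median -0.03) and 5 lower in PS19 than in WT (median 0.07), with Rad23b, a proteasome shuttle gene, at -0.27 (SE 0.18) at 11 months. Of 7 core Sm protein genes, the family of SmN, 5 were lower at 11 months (median -0.16), with Snrpd3 at -0.35 (SE 0.21) and Snrpb at 0.29 (SE 0.22). The 10 genes of the MAGEL2 complex and retromer had medians of -0.05 at 11 months and 0.01 at 9 months, with the deubiquitinase gene Usp7 at -0.21 (SE 0.14) and the retromer core gene Vps35 at -0.08 (SE 0.10). Among 17 tested factors of imprint maintenance and H3K9 or DNA methylation the medians were -0.05 at 11 months, with the zinc finger gene Zfp445 at -0.11 (SE 0.10), and -0.02 at 9 months. The single edgeR call in these lists over all comparisons was Kdm1a, the gene carried by the virus, in PS19_rescue against WT_HA (6.33, SE 0.67, adjusted p = 0.0312).

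Other imprinted genes leaned the same way as Snhg14 without being called. Of 35 tested at 11 months 26 were lower in PS19_HA (median -0.20) and of 36 tested at 9 months 27 were lower in PS19 (median -0.17), while the medians over all genes were 0 and -0.02. Meg3, a maternally expressed long noncoding RNA of the Dlk1-Dio3 domain, was at -0.56 (SE 0.23) at 11 months and Rian, a snoRNA host of the same domain, at -0.30 (SE 0.12). Among 18 nuclear and host long noncoding RNAs 11 were lower at 11 months (median -0.08), with Malat1 at -0.39 (SE 0.19). In PS19_rescue against PS19_HA Meg3 was at 0.02 (SE 0.23) and Rian at 0.08 (SE 0.12).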

How the data were processed

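Levels come from gene count tables, 1 per library, of 23 libraries of mouse hippocampus RNA. The authors deposited whole-number counts per Ensembl gene, made on GRCm38 per the submitters' processing notes, which name featureCounts (1.6.0.6), HISAT2 (2.1.0), DESeq2 (2.11.40.2), Trimmomatic (0.36.5) and FastQC (0.11.7). Strandedness, gene model release and the handling of reads in overlapping genes were not given in the sources used here. Of 54232 identifiers 54165 matched GENCODE M21.

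The 9-month (14 libraries) and 11-month (9 libraries) cohorts were fitted separately in edgeR 4.0.16 (R 4.3.3): filterByExpr by group (minimum count 10, minimum total 15), TMM, robust quasi-likelihood test, Benjamini-Hochberg adjustment over all genes tested, threshold 0.05. The standard error is the log2 difference over the root of F. The biological coefficient of variation was 0.423 at 9 and 0.243 at 11 months. Within-library ratios and exon-length classes were added after the data were seen. The script was tested on simulated data. DESeq2 1.42.0, other scaling, no filter, a replicate block, fits within replicates 1 and 2 or 3 and 4, a sex covariate, mitochondrial exclusions and leaving out each replicate were the alternatives. No 2 libraries of a group agreed within sampling noise (closest pair: chi-square of 11.6 per gene).

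Whether replicate numbers pair libraries was read from the correlation of deviations from group means, counted as paired above 0.1 in every pair of 3 or more. This held for PS19 against WT, PS19_Lsd1het against WT (0.31 to 0.54) and against PS19 (0.30 to 0.48), PS19_HA against WT_HA (0.11 to 0.30) and PS19_rescue against WT_HA (0.12 to 0.47). Libraries of the first group correlated best with their own number in 4 of 4, 2 of 4, 0 of 4, 3 of 3 and 2 of 3 cases, in that order. A split between replicate numbers shared by the groups can also give such correlations, so the rule does not show true pairs. In PS19_rescue against WT_HA, numbers 1 and 3 join libraries of opposite sex type. The genes and gene lists were chosen with earlier results of these data known. All 8 locus genes are given by values. From each other list up to 4 called genes, or 2 of highest mean level, are named. For Snhg14 and Ube3a the 5 most alike genes are named, apart from predicted genes and pseudogenes. One gene that this rule names is not reported here.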

Additional observations from a re-analysis of the deposited data

Results flagged for a closer look

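In 21 checks of a locus gene within a 9-month group of 4, where chance gives about 1 flag in 20, 2 libraries stood far from the other 3 of their group. Magel2 stood at 7.11 CPM in WT replicate 2 against 1.74 to 2.64 CPM in the other WT libraries. Mkrn3 stood at 2.51 CPM in PS19_Lsd1het replicate 2 against 0.980 to 1.18 CPM in the other PS19_Lsd1het libraries. Without WT replicate 2 the Magel2 difference of PS19 from WT was 0.20, against -0.45 with it.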

How the results depend on the processing

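No locus gene was called by edgeR in any of the 8 comparisons under any alternative run. By DESeq2 the count was 1 in PS19_HA against WT_HA and 0 in the others, but that contrast chose the genes, so nothing is read from its count. With the replicate block 0 locus genes were called in every comparison. The block moved the number of all genes called from 1 to 5 in PS19 against WT, from 1 to 4 in PS19_Lsd1het against WT and from 4 to 0 in PS19_rescue against WT_HA, and from 3 to 4 in PS19_HA against WT_HA. Where the numbers only share a label, the block gave 0 genes called in Lsd1het against WT (correlations 0.03 to 0.07 in 2 pairs) and in PS19_rescue against PS19_HA (0.07 to 0.24, 2 of 3 libraries best with their own number). Over all genes DESeq2 called 183, 110, 1, 1, 2, 131, 3 and 18 genes in PS19 against WT, PS19_Lsd1het against WT, PS19_Lsd1het against PS19, Lsd1het against WT, the interaction, PS19_HA against WT_HA, PS19_rescue against PS19_HA and PS19_rescue against WT_HA, where edgeR called 1, 1, 0, 0, 0, 3, 0 and 4. Leaving out 1 library gave 1 to 146 genes in PS19 against WT (146 without PS19 replicate 2) and 0 to 8 in PS19_HA against WT_HA (8 without PS19_HA replicate 1, 1 without WT_HA replicate 1, and 0 without any other). The cause of these shifts was not tested. The Snhg14 difference in PS19_HA against WT_HA ran from -0.65 to -0.52 and in PS19_rescue against PS19_HA from 0.21 to 0.34 over 14 alternatives each, while in PS19 against WT it ran from -1.05 (without PS19 replicate 3) to -0.05 (without WT replicate 3). Depth limits Peg12, which had 0 to 7 reads per library, and Snurf, with 0.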
